A study of Homo sapiens with 6 samples.

Results

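The extracellular metalloproteases and their inhibitors were described here as 71 of the 60843 genes of the deposited table, chosen by name: every protein-coding gene called MMP, TIMP, ADAM, ADAMTS or ADAMTSL followed by a number. They comprised 23 MMPs, 4 TIMPs, 20 ADAMs, 19 ADAMTSs and 5 ADAMTS-like genes, and the rule reads the gene's name and type, not its level. RNA sequencing gave their messenger RNA levels in SW872-S, which the labels call a liposarcoma cell line. The 3 libraries called TP53INP2_OE came from SW872-S cells with a plasmid that overexpresses TP53INP2, a gene with a role in autophagy, and the 3 called NC from SW872-S cells whose genotype label reads TP53INP2 NC, an abbreviation the labels do not spell out. The design text speaks of cells of different sources without naming them, and the labels give the same line and medium for all 6 libraries. Whether libraries of one group were made from separate cultures is not stated in the labels. The p-values therefore set a group difference only against the spread among these libraries, and that spread may be technical.

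MMPs cleave collagens, gelatin and other matrix proteins, and TIMPs block them by filling the catalytic site. ADAMs are membrane proteases that cut the outer part off receptors, adhesion molecules and growth factor precursors, a step called shedding, while ADAMTSs are secreted enzymes that process proteoglycans, procollagens and microfibril proteins. MMPs and the catalytic ADAMs and ADAMTSs hold a zinc ion with 3 histidines of a conserved motif, and ADAMTS-like proteins lack the protease domain. Tumours of mesenchymal origin are known to express several of these enzymes, MMP14 and MMP2 among them.

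TP53INP2 itself, on chr20:34704339-34713439 (GRCh38), was at 18.9, 23.4 and 27.1 FPKM (fragments scaled by gene length and by library total) in TP53INP2_OE libraries 1 to 3, against 10.6, 9.45 and 9.67 FPKM in NC libraries 1 to 3. Every TP53INP2_OE library was above every NC library. The log2 fold change was 1.13 (SE 0.12, adjusted p = 0.00282, limma).

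Of the 71 genes, 29 reached a mean of 0.5 FPKM over the 6 libraries and were tested, namely 6 MMPs, 3 TIMPs, 8 ADAMs, 10 ADAMTSs and 2 ADAMTS-like genes. MMP14, a membrane-anchored collagenase that also activates MMP2, was the highest, followed by TIMP3, the inhibitor that binds to the matrix; they ranked 79 and 84 among all genes by mean FPKM. TIMP1, TIMP2 and ADAM9 came next, and these 5 were the only members with a mean of at least 50 FPKM. ADAM15, MMP2, ADAMTS12, ADAM10, ADAM19, MMP1 and MMP9 were also at 10 FPKM or more, which made 12 in all, and 24 members had a mean of at least 1 FPKM.

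**Figure D1:**
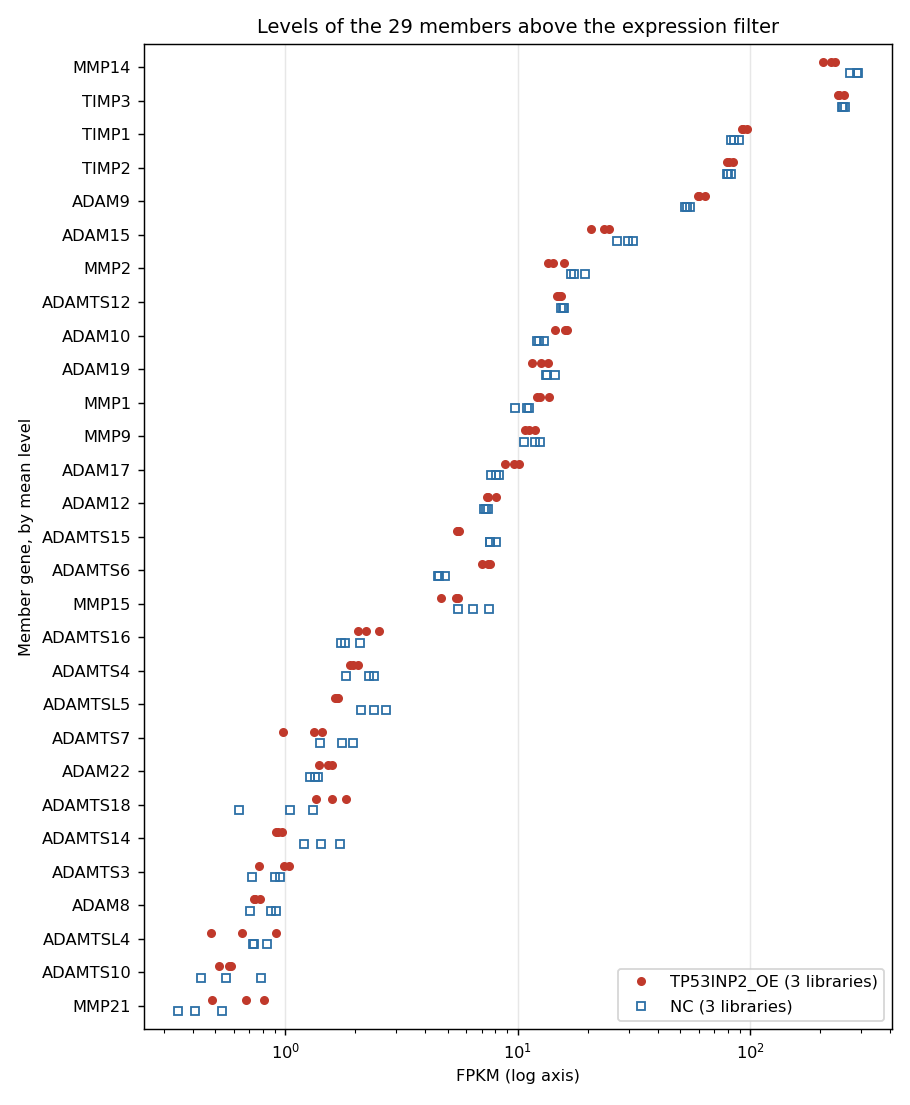
FPKM (log axis) of each of the 29 tested members, ordered by mean level, in 3 TP53INP2_OE libraries (filled circles) and 3 NC libraries (open squares). MMP14 and TIMP3 lay at 205 to 292 FPKM in every library, and the 2 groups were mostly close together beside the spread of levels between genes.

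Groups were compared with limma on log2(FPKM + 1), a scale that understates the change of low genes, and p-values were adjusted over all 14791 genes tested (Benjamini-Hochberg, threshold 0.05). In TP53INP2_OE cells 5 members rose (ADAMTS6, ADAM10, MMP1, ADAM17 and ADAM9) and 6 fell (ADAMTS15, MMP14, ADAMTSL5, ADAM15, ADAMTS14 and MMP2), while 18 did not pass. That is 37.9% of the tested members, beside 35.0% of all tested genes (16.4% higher and 18.6% lower), so the share called was near the background. The 3 libraries of each group did not overlap for 15 members (51.7%), beside 50.8% of all tested genes. TP53INP2_OE was above NC in 8 of these (25.2% of all tested genes) and below it in 7 (25.6%). The changes were small: the median log2 fold change was -0.04 over the tested members and 0.0032 over all tested genes, the median absolute change 0.19 and 0.18, and no member reached 1 in either direction.

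The direction of a member's change went with the GC content of its longest transcript. The 5 members that rose had a GC content of 38.3 to 43.4% (median 39.4%), and the 6 that fell one of 56.5 to 63.9% (median 60.7%). All 7 tested members under 45% GC had a log2 fold change above 0, and 12 of the 13 over 55% had one below 0. Across the 29 tested members, Pearson's r between GC content and log2 fold change was -0.71 and Spearman's rho -0.70. Across 11270 tested protein-coding genes rho was -0.78; the genes share the same 6 libraries and are not independent replicates. Per 10 points of GC content, the fitted slope of a library's log2 deviation from the gene mean was -0.07, -0.15 and -0.08 in TP53INP2_OE libraries 1 to 3, against 0.12, 0.11 and 0.07 in NC libraries 1 to 3. The libraries of the 2 groups thus differed in sign, and a technical GC trend and a biological one cannot be told apart in this design. Values after a trend on GC content and gene length was subtracted from each library are therefore given as GC-corrected beside the members that changed, and in the plot of fold changes before and after correction for all 29.

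**Figure D2:**
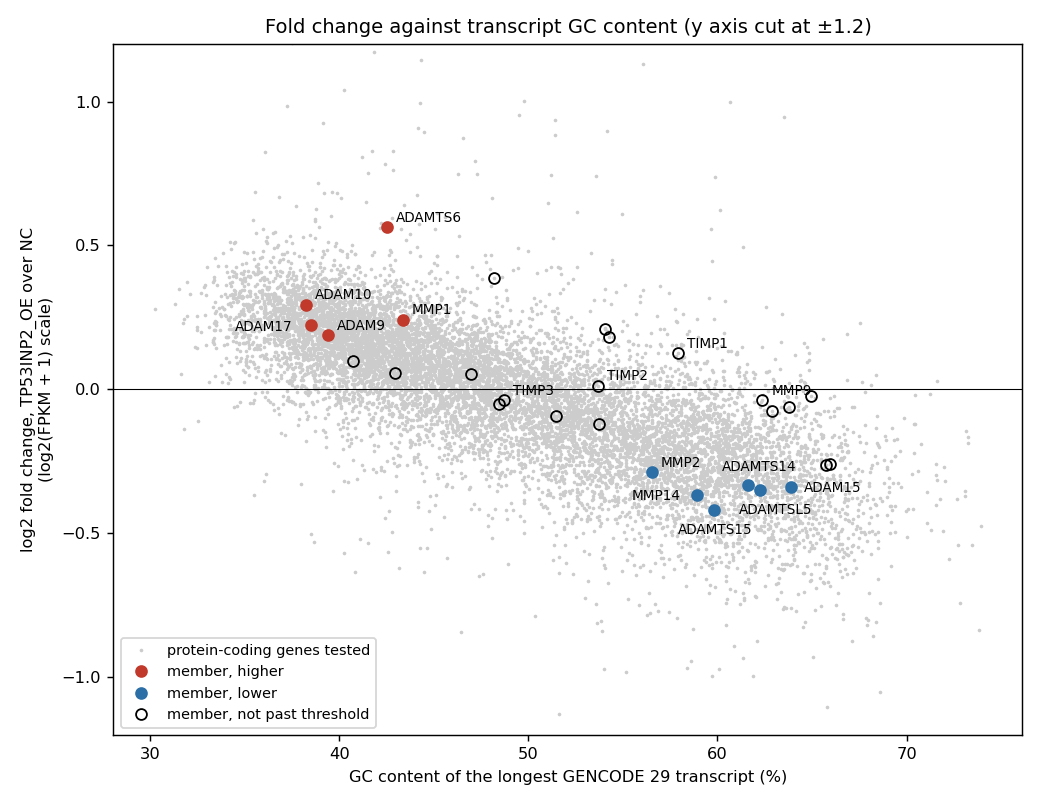
Log2 fold change (TP53INP2_OE over NC, log2(FPKM + 1) scale, vertical axis limited as marked) against transcript GC content in %, for tested protein-coding genes (grey) and the 29 tested members, filled where past the threshold. Red members that rose lie at 38.3 to 43.4% GC and blue members that fell at 56.5 to 63.9%, along the slope of the grey points.

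The same difference in composition can be read in the stretch of coding sequence that encodes the zinc-binding motif. The motif was searched as HExxHxx(G or N)xxH, where x is any amino acid. It was found in 53 of the 71 members and 23 of the 29 tested. ADAMTS8 did not match, so these are counts of matches to the pattern and not of zinc-binding proteases. The 33 bases of the stretch are shown for 9 of the members that changed, as the part all of these enzymes share. The 3 histidine codons that hold the zinc ion are in capitals, read 5′ to 3′ from the longest GENCODE 29 coding sequence on GRCh38. First come the 4 that rose and then the 5 that fell:
ADAMTS6: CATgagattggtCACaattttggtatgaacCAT
ADAM10: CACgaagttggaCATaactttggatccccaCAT
ADAM17: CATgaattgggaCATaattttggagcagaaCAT
MMP1: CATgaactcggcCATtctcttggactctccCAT
MMP14: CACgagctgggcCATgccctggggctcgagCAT
MMP2: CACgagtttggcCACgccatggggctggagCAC
ADAM15: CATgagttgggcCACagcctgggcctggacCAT
ADAMTS15: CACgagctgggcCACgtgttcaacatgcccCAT
ADAMTS14: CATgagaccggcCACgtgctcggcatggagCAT
The stretch lies at chr2:9510078-9510110 on the minus strand for ADAM17, chr11:102795549-102795581 on the minus strand for MMP1, chr14:22843283-22843315 on the plus strand for MMP14, chr16:55491827-55491859 on the plus strand for MMP2 and chr1:155056995-155057027 on the plus strand for ADAM15, each within 1 coding exon. Its GC content was 36.4 to 51.5% in the 4 members shown that rose and 60.6 to 69.7% in the 5 shown that fell. ADAM9, which also rose, holds the motif at 36.4% GC and is not shown. Among tested members that did not pass, the GC content of the stretch ran from 42.4% in ADAMTS16 to 72.7% in MMP15. At the third codon position of the whole coding sequence the GC content was 33.2 to 45.7% in the 4 shown that rose and 67.2 to 80.2% in the 5 shown that fell. Over the 29 tested members third-position and transcript GC content went together (Spearman's rho 0.76).

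The TIMPs were high in both groups, and the mean of TIMP1 was 9.21% higher in TP53INP2_OE, that of TIMP2 0.927% higher and that of TIMP3 differed by -2.57%. None of the 3 tested TIMPs passed limma's adjusted threshold, 1 had an unadjusted p below 0.05 and limma's voom on the reads behind the values, which called 20.2% of all tested genes higher and 21.4% lower, called 1 higher and 0 lower. That gene was TIMP1 in both cases. TIMP3 (chr22:32801701-32863043) was at 254, 242 and 239 FPKM in TP53INP2_OE libraries and at 250, 255 and 249 FPKM in NC libraries, which overlap (log2 fold change -0.04, SE 0.03, adjusted p = 0.436, limma). Under quantile normalization the sign turned and the TIMP3 value passed (0.14, adjusted p = 0.00628, limma). TIMP2 (chr17:78852977-78925387), which also helps MMP14 to activate MMP2, was at 79.6, 84.1 and 81.4 FPKM in TP53INP2_OE libraries and 80.3, 83.0 and 79.6 FPKM in NC libraries (log2 fold change 0.01, SE 0.03, adjusted p = 0.805, limma). The GC-corrected log2 fold change was 0.12 for TIMP2 (adjusted p = 0.0956, limma) and -0.03 for TIMP3 (adjusted p = 0.540, limma). TIMP1 (chrX:47582408-47586789), an inhibitor of most soluble MMPs, was at 96.7, 91.9 and 92.9 FPKM in TP53INP2_OE libraries, against 85.5, 89.9 and 82.4 FPKM in NC libraries. Every TP53INP2_OE library was higher than every NC library, yet the change missed the threshold (log2 fold change 0.13, SE 0.04, adjusted p = 0.0564, limma). TIMP1 has 57.9% GC and its GC-corrected log2 fold change was 0.35 (adjusted p = 0.00597, limma). It also passed without NC library 2 (adjusted p = 0.0458, limma).

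Among the MMPs, 1 of the 6 tested rose and 2 fell, beside 16.4% of all tested genes higher and 18.6% lower. After GC correction 1 MMP was higher and 0 lower, beside 4.53% and 5.88% of all genes so tested. MMP14 (chr14:22836560-22849027) was at 231, 205 and 223 FPKM in TP53INP2_OE libraries, against 289, 292 and 269 FPKM in NC libraries. No library of one group reached the range of the other, and the mean was 219.8 ± 13.6 FPKM in TP53INP2_OE cells and 283 ± 12.6 FPKM in NC cells (SD, n = 3 each). MMP14 thus fell by 22.5% (log2 fold change -0.37, SE 0.06, adjusted p = 0.00495, limma), and the GC-corrected log2 fold change was -0.14 (adjusted p = 0.0523, limma).

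MMP2 (chr16:55389700-55506691), a gelatinase, was at 15.8, 14.2 and 13.5 FPKM in TP53INP2_OE libraries, against 19.4, 17 and 17.4 FPKM in NC libraries. All TP53INP2_OE libraries were lower than all NC libraries (log2 fold change -0.29, SE 0.07, adjusted p = 0.0215, limma). MMP2 no longer passed after GC correction (log2 fold change -0.11, adjusted p = 0.330, limma), nor without TP53INP2_OE library 2 or 3 or NC library 1 (adjusted p = 0.0636, 0.0604 and 0.0652, limma).

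MMP1 (chr11:102789919-102798160), the interstitial collagenase, was at 13.6, 12.5 and 12.1 FPKM in TP53INP2_OE libraries, against 9.77, 10.9 and 11.1 FPKM in NC libraries. Every TP53INP2_OE library was higher than every NC library (log2 fold change 0.24, SE 0.06, adjusted p = 0.0263, limma). The call was lost after GC correction (log2 fold change 0.15, adjusted p = 0.175, limma) and without TP53INP2_OE library 1 or 2 or NC library 1 or 2 (adjusted p between 0.0566 and 0.0741, limma). MMP1 lies in a cluster of 9 MMP genes over 435 kb of chromosome 11 (chr11:102520508-102955732). It was the only one of them that was tested, and 3 of the 9 had reads in all 6 libraries. MMP3, stromelysin-1, is another of the cluster and was at 0.233, 0.188 and 0.233 FPKM in TP53INP2_OE libraries and at 0.165, 0.366 and 0.182 FPKM in NC libraries, from 5 to 12 reads a library.

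Of the other tested MMPs, MMP9, the second gelatinase, was at 11.3 ± 0.546 FPKM in TP53INP2_OE cells and 11.6 ± 0.943 FPKM in NC cells (SD, n = 3 each), with overlapping libraries (log2 fold change -0.04, adjusted p = 0.695, limma). Its transcript has 62.4% GC, and the GC-corrected log2 fold change was 0.26 (adjusted p = 0.0282, limma). MMP15, a membrane-type MMP, was at 5.22 ± 0.477 FPKM in TP53INP2_OE cells and 6.48 ± 1.00 FPKM in NC cells (SD, n = 3 each; log2 fold change -0.26, adjusted p = 0.107, and 0.0424 without NC library 3, limma; adjusted p = 0.0189 by voom). MMP21, known for a role in left-right patterning, reached a log2 fold change of only 0.21 (adjusted p = 0.256, limma).

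Of the 8 tested ADAMs, 3 rose and 1 fell, beside 16.4% of all tested genes higher and 18.6% lower. After GC correction 0 ADAMs were higher and 0 lower, beside 4.53% and 5.88% of all genes so tested. ADAM10 (chr15:58588809-58749791), the sheddase of Notch and many adhesion molecules, was at 14.5, 16.3 and 15.9 FPKM in TP53INP2_OE libraries, against 12.2, 12.3 and 13.0 FPKM in NC libraries. The groups did not overlap (log2 fold change 0.29, SE 0.05, adjusted p = 0.00807, limma), and the GC-corrected log2 fold change was 0.08 (adjusted p = 0.222, limma). ADAM17 (chr2:9488486-9556732), the sheddase of TNF and of several EGF receptor ligands, was at 8.82, 10.1 and 9.60 FPKM in TP53INP2_OE libraries, against 7.65, 8.03 and 8.30 FPKM in NC libraries. Again every TP53INP2_OE library was the higher (log2 fold change 0.22, SE 0.06, adjusted p = 0.0259, limma). After GC correction the ADAM17 value was 0.02 (adjusted p = 0.854, limma), and the call was also lost without TP53INP2_OE library 2 or 3 or NC library 1 or 2 (adjusted p between 0.0682 and 0.0885, limma). ADAM17 shares 12.3% of its exon bases with IAH1 on the opposite strand, at 4.58 FPKM in TP53INP2_OE cells and 4.38 FPKM in NC cells, and reads from the 2 genes cannot be told apart there, since the sources used here do not give the strand setting.

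ADAM9 (chr8:38996869-39105261), a widely expressed sheddase and the highest ADAM, was at 59.8, 64.1 and 60.1 FPKM in TP53INP2_OE libraries, against 55.2, 53.4 and 52.6 FPKM in NC libraries. The groups did not overlap (log2 fold change 0.19, SE 0.04, adjusted p = 0.0125, limma). ADAM9 was the only one of the 11 changed members whose sign turned after GC correction (log2 fold change -0.0032, adjusted p = 0.968, limma).

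ADAM15 (chr1:155050566-155062775), a metalloprotease with an integrin-binding domain, was at 24.6, 20.6 and 23.5 FPKM in TP53INP2_OE libraries, against 31.2, 29.8 and 26.7 FPKM in NC libraries. All TP53INP2_OE libraries were lower than all NC libraries (log2 fold change -0.34, SE 0.08, adjusted p = 0.0186, limma). The GC-corrected log2 fold change was -0.05 (adjusted p = 0.622, limma), and the call was lost without NC library 1 or 2 (adjusted p = 0.0649 and 0.0625, limma). ADAM19, which can shed neuregulin (log2 fold change -0.12), ADAM12 (0.05), ADAM8 (-0.06) and ADAM22, which has no working catalytic site and binds LGI proteins at synapses (0.10), did not pass, with adjusted p between 0.186 and 0.668 (limma).

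The ADAMTS genes held the changes of largest size among the members in both directions, and 1 of the 10 tested rose and 2 fell. The shares of all tested genes were 16.4% higher and 18.6% lower. After GC correction 1 ADAMTS gene was higher and 1 lower, beside 4.53% and 5.88% of all genes so tested. ADAMTS6 (chr5:65148738-65481920), known from mouse work to act on fibrillin microfibrils and in heart development, was at 7.03, 7.46 and 7.57 FPKM in TP53INP2_OE libraries, against 4.57, 4.86 and 4.53 FPKM in NC libraries. The lowest TP53INP2_OE library lay well above the highest NC library. The mean was 7.35 ± 0.281 FPKM in TP53INP2_OE cells and 4.66 ± 0.179 FPKM in NC cells (SD, n = 3 each), 57.9% higher in TP53INP2_OE (log2 fold change 0.56, SE 0.05, adjusted p = 0.00239, limma). After GC correction the log2 fold change was 0.43 (adjusted p = 0.00828, limma). ADAMTS6 passed under each of the 17 alternative settings tried, with an adjusted p of at most 0.0345.

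ADAMTS15 (chr11:130448974-130476641), a protease of versican and aggrecan, was at 5.57, 5.53 and 5.50 FPKM in TP53INP2_OE libraries, against 8.02, 7.61 and 7.58 FPKM in NC libraries. The groups stood well apart, and ADAMTS15 fell by 28.5% (log2 fold change -0.42, SE 0.04, adjusted p = 0.00276, limma). The GC-corrected log2 fold change was -0.18 (adjusted p = 0.0495, limma). Among the 17 alternative settings the ADAMTS15 call was lost only under that correction with libraries blocked by replicate number (adjusted p = 0.117, limma). ADAMTS14 (chr10:70672506-70762441), which removes the amino-terminal propeptide of procollagens, was at 0.910, 0.931 and 0.964 FPKM in TP53INP2_OE libraries, against 1.72, 1.42 and 1.2 FPKM in NC libraries. The groups did not overlap, but the call was close to the threshold (log2 fold change -0.33, SE 0.10, adjusted p = 0.0450, limma). It was lost after GC correction (log2 fold change -0.06, adjusted p = 0.721, limma) and without any one of the 3 TP53INP2_OE libraries or NC library 1 or 2 (adjusted p between 0.0867 and 0.136, limma).

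ADAMTSL5 (chr19:1505022-1513604), a secreted protein that binds fibrillin, was at 1.69, 1.67 and 1.63 FPKM in TP53INP2_OE libraries, against 2.71, 2.40 and 2.11 FPKM in NC libraries. The groups did not overlap (log2 fold change -0.35, SE 0.08, adjusted p = 0.0182, limma). The GC-corrected value was -0.06 (adjusted p = 0.635, limma), and ADAMTSL5 did not pass without NC library 1 or 2 (adjusted p = 0.0595 and 0.0585, limma). It shares 3.94% of its exon bases with AC027307.1 on the opposite strand, which was at 0.265 FPKM in TP53INP2_OE cells and 0.877 FPKM in NC cells (log2 fold change -0.56, adjusted p = 0.0383, limma). ADAMTSL4, the other tested gene of this subfamily and also a fibrillin-binding protein, did not pass (log2 fold change -0.08, adjusted p = 0.680, limma).

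The remaining 7 tested ADAMTS genes did not pass by limma, while voom called ADAMTS18 higher (log2 fold change 0.73, adjusted p = 0.00148) and ADAMTS7 lower (-0.45, adjusted p = 0.0124). ADAMTS12, the highest ADAMTS and a protease of cartilage oligomeric matrix protein, was at 15.1 ± 0.246 FPKM in TP53INP2_OE cells and 15.6 ± 0.192 FPKM in NC cells (SD, n = 3 each; log2 fold change -0.05, adjusted p = 0.303, limma). ADAMTS18 was at 1.36, 1.59 and 1.82 FPKM in TP53INP2_OE libraries, against 1.05, 1.31 and 0.629 FPKM in NC libraries (log2 fold change 0.39, SE 0.15, adjusted p = 0.0859, limma). Its groups did not overlap, but the NC libraries were spread widely. The values of ADAMTS16 (log2 fold change 0.18) and the procollagen and VEGFC protease ADAMTS3 (0.06) were positive. Those of ADAMTS7 (-0.26), the aggrecanase ADAMTS4 (-0.09) and ADAMTS10 (-0.02) were negative, with adjusted p between 0.133 and 0.906 for these 5 (limma).

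**Figure D3:**
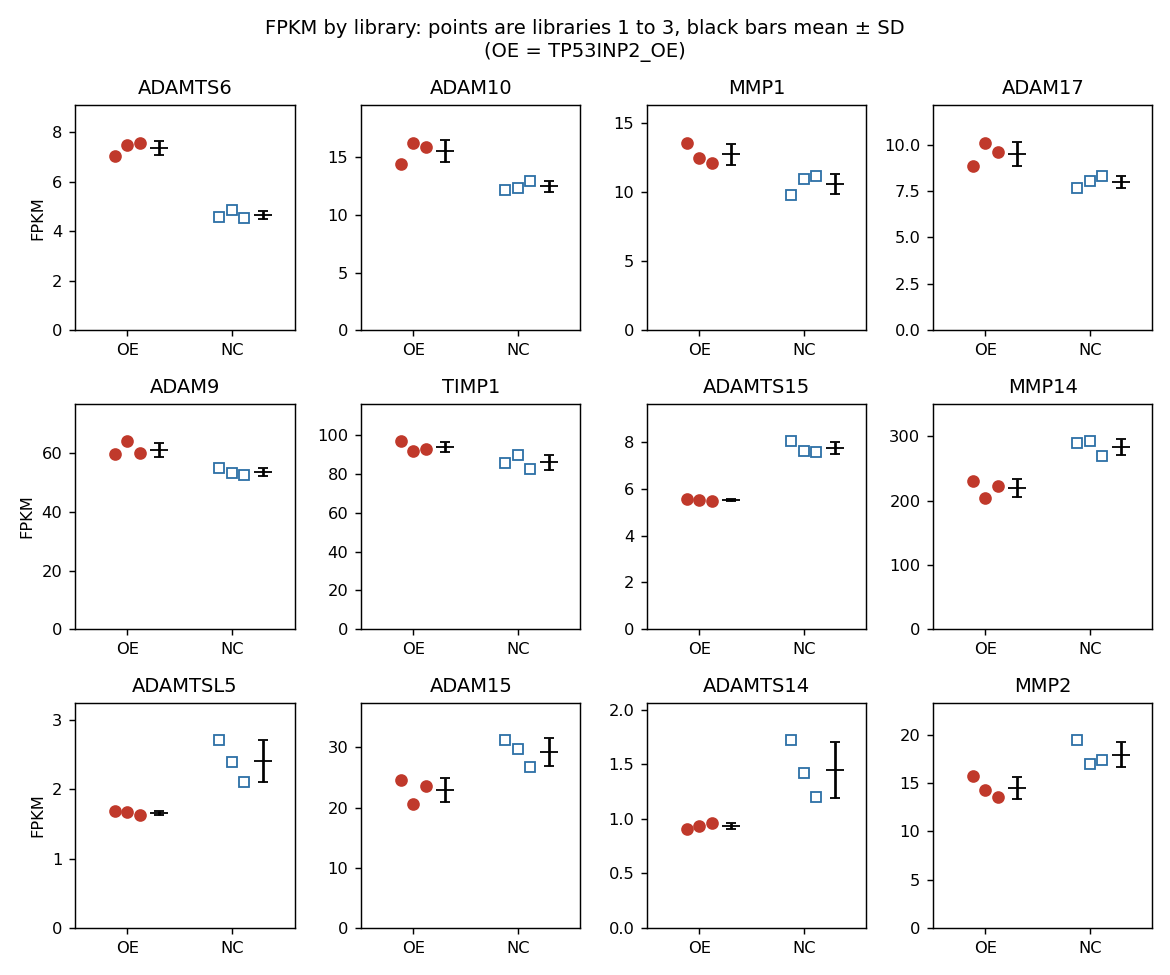
FPKM of the 11 members that changed and of TIMP1 in each library, TP53INP2_OE (red circles, labelled OE) left of NC (blue open squares), with mean ± SD as black bars (n = 3 each) and axes starting at 0. In each of the 12 panels the 2 groups do not overlap, and neither did they for 50.8% of all tested genes. The 11 were picked because they passed the threshold, so their lack of overlap is no further support. ADAMTS6, at 7.03 to 7.57 FPKM in TP53INP2_OE and 4.53 to 4.86 FPKM in NC, differed by the largest log2 fold change.

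After GC correction, 3 members were higher in TP53INP2_OE (ADAMTS6, TIMP1 and MMP9) and 1 was lower (ADAMTS15). These 4 are 13.8% of the tested members, beside 10.4% of the 14548 genes tested in that way (4.53% higher and 5.88% lower). Of the 11 members that changed before correction, 10 kept their sign. The sign turned for 9 of the 29 tested members in all. MMP9, ADAM8, ADAMTS10, ADAMTSL4, MMP15 and ADAMTS7 had GC-corrected log2 fold changes of 0.26, 0.24, 0.28, 0.21, 0.06 and 0.04, all above 0. ADAM9, ADAM22 and ADAMTS3 had values of -0.0032, -0.08 and -0.07, and of the 9 only MMP9 passed after the correction (limma). With the trend fitted among protein-coding genes only, an alternative chosen after seeing the data, 8 members were higher and 2 lower (8.96% higher and 10.3% lower of the 11270 genes so tested). After correction the 29 members' log2 fold changes and GC contents had a Spearman's rho of 0.03. A value near 0 is built in, since the correction subtracts a trend on the same GC content, so it is no test of the correction. The median absolute log2 fold change was then 0.08 over the members and 0.11 over all genes so tested.

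**Figure D4:**
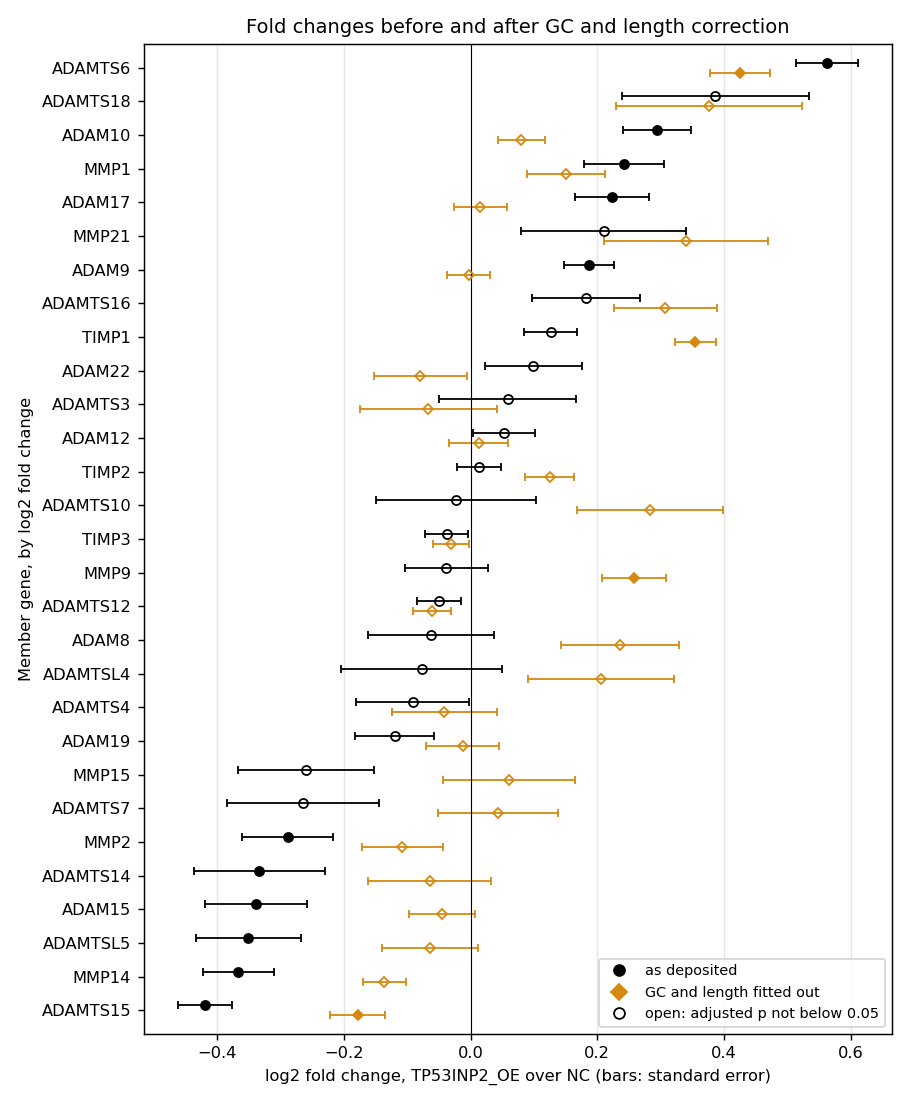
Log2 fold change (TP53INP2_OE over NC, bars are standard errors) of the 29 tested members from the deposited values (black circles) and after GC and length correction (orange diamonds), filled where the adjusted p was below 0.05. ADAMTS6 (0.56 and 0.43) and ADAMTS15 (-0.42 and -0.18) are filled in both, while ADAM9 moved to -0.0032.

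Summed over each family, the MMPs and the ADAMTS-like genes were lower in TP53INP2_OE cells and the TIMPs were level. These sums are a description with no test. The 23 MMPs summed to 266 ± 14.8 FPKM in TP53INP2_OE libraries and 333 ± 14.2 FPKM in NC libraries (SD, n = 3 each), a ratio of 0.80. MMP14 made up 81.9 to 85.7% of that sum, so the sum mostly follows that 1 gene. The 4 TIMPs summed to 421 ± 8.87 FPKM in TP53INP2_OE libraries and 418 ± 8.32 FPKM in NC libraries (SD, n = 3 each). The ratio of summed TIMP to summed MMP level was 1.54, 1.67 and 1.54 in TP53INP2_OE libraries, against 1.22, 1.25 and 1.30 in NC libraries. These did not overlap, and neither did the groups for 50.8% of all tested genes. Sums and ratio used the deposited values without GC correction. The log2 fold change of MMP14 was -0.37 before that correction and -0.14 after it (adjusted p = 0.00495 and 0.0523, limma). The ADAM sum was 132 ± 2.09 FPKM in TP53INP2_OE libraries and 127 ± 3.6 FPKM in NC libraries, and the ADAMTS sum 38.1 ± 0.679 FPKM in TP53INP2_OE libraries and 38.2 ± 1.52 FPKM in NC libraries (SD, n = 3 each). The ADAMTS-like genes summed to 2.37 ± 0.219 FPKM in TP53INP2_OE libraries and 3.23 ± 0.322 FPKM in NC libraries (SD, n = 3 each), a ratio of 0.73. ADAMTSL5 made up 63.1 to 77.7% of that sum. In bulk RNA, fewer cells that express a gene and less of its RNA per cell cannot be told apart.

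**Figure D5:**
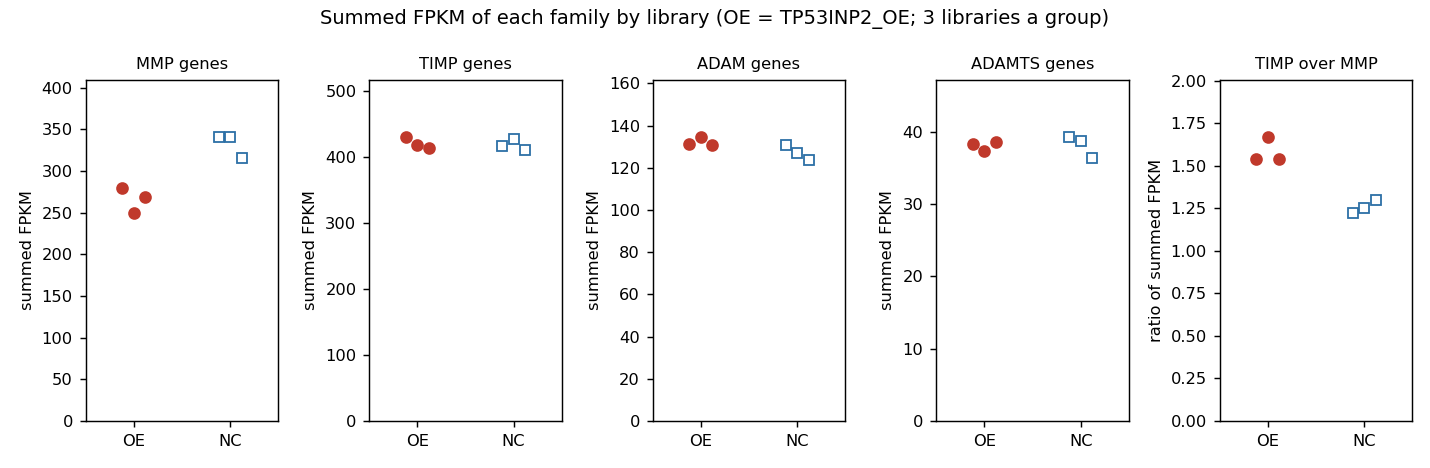
Summed FPKM of the MMP, TIMP, ADAM and ADAMTS genes and the ratio of summed TIMP to summed MMP FPKM in each of 3 TP53INP2_OE libraries (red circles, labelled OE) and 3 NC libraries (blue open squares), with axes starting at 0. The MMP sum averaged 266 FPKM in TP53INP2_OE and 333 FPKM in NC, and the ratio was 1.54 to 1.67 in TP53INP2_OE and 1.22 to 1.30 in NC. The values are not GC-corrected.

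The other 42 members did not reach the filter. Of these, 34 were above 0 in at least 1 library, and 16 in all 6. Their highest mean was 0.387 FPKM, for MMP19, and the highest value in a library 0.523 FPKM, for the collagenase MMP13, and their changes were not tested. The matrilysin MMP7 had 1, 0 and 2 reads in TP53INP2_OE libraries, against 9, 4 and 9 reads in NC libraries. TIMP4 had 3, 0 and 5 reads in TP53INP2_OE libraries and 0 reads in each NC library. MMP7 was thus lower in every TP53INP2_OE library than in any NC library, while TIMP4 overlapped at 0. Among the other members below the filter, MMP24 was also lower without overlap, and ADAM21 and ADAM28 were higher without overlap. These differences rest on few reads, and the share of all genes below the filter without overlap was not counted. The 8 members at 0 in all 6 libraries were MMP8, MMP26, ADAM2, ADAM7, ADAM18, ADAM29, ADAMTS5 and ADAMTS19. A count of 0 allows up to 3 reads, which for these genes is 0.0172 to 0.142 FPKM depending on gene and library, for counting error only. ADAM2, ADAM7, ADAM18 and ADAM29 are known mainly from the testis and epididymis, MMP8 from neutrophils and ADAMTS5 as an aggrecanase of cartilage.

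Genes that work with these proteases were counted from lists of their partners and substrates, against 16.4% of all tested genes higher and 18.6% lower, and 4.53% and 5.88% after GC correction. Of 11 tested inhibitors and activators of MMPs outside the TIMPs, 4 rose and 3 fell, and after GC correction 3 were higher and 1 was lower. FURIN, a convertase that activates MMP14 and the ADAMs, was at 43.0 ± 3.40 FPKM in TP53INP2_OE cells and 55.9 ± 1.35 FPKM in NC cells (SD, n = 3 each; log2 fold change -0.37, adjusted p = 0.00547, limma; GC-corrected -0.10, adjusted p = 0.129). RECK, a membrane-anchored inhibitor of MMPs, was higher by a log2 fold change of 0.32 (adjusted p = 0.0294, limma; GC-corrected 0.23, adjusted p = 0.132). Of 8 tested partners of ADAM10 and ADAM17, 1 rose and 2 fell, and after GC correction 2 were higher and 0 lower (limma; 4 had an unadjusted p below 0.05, and voom without the correction called 1 higher and 3 lower). TSPAN15 and TSPAN17, tetraspanins that bind ADAM10, had log2 fold changes of -0.44 and -0.33 (adjusted p = 0.00598 and 0.0113, limma), and the ADAM10 inhibitor SFRP1 one of 0.25 (adjusted p = 0.00646, limma). Of these 3 only SFRP1 passed after GC correction (0.28, adjusted p = 0.0146, limma).

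Among 22 tested membrane proteins known to be shed, 6 rose and 6 fell, and after GC correction 3 were higher and 1 was lower. The shares of all tested genes were 16.4% higher and 18.6% lower, and 4.53% and 5.88% after GC correction. The syndecans went opposite ways. SDC1 was at 46.3 ± 2.20 FPKM in TP53INP2_OE cells and 66.8 ± 2.23 FPKM in NC cells (SD, n = 3 each; log2 fold change -0.52, adjusted p = 0.00239, limma), and SDC4 at 222 ± 1.91 FPKM in TP53INP2_OE cells and 175 ± 12.6 FPKM in NC cells (SD, n = 3 each; log2 fold change 0.35, adjusted p = 0.00495, limma). The receptor gene MET rose by 0.31 on the log2 scale (adjusted p = 0.00319, limma), and these 3 kept their calls and signs after GC correction. Of 12 tested matrix substrates, 3 rose and 6 fell, and after GC correction 5 were lower and none higher (8 had an unadjusted p below 0.05; voom without the correction called 3 higher and 6 lower), beside the same shares of all tested genes. Biglycan (BGN) was at 246 ± 21.7 FPKM in TP53INP2_OE cells and 363 ± 18.5 FPKM in NC cells (SD, n = 3 each), with a log2 fold change of -0.56 (adjusted p = 0.00325, limma). COL4A2 and COL1A1 had log2 fold changes of -0.54 and -0.44 (adjusted p = 0.00323 and 0.00317, limma), and all 3 were still lower after GC correction (adjusted p between 0.0162 and 0.0245, limma). Of a list of related proteases and ADAMTS-like proteins outside the naming pattern, the proteases BMP1 and PAPPA and the ADAMTS-like THSD4 and PAPLN were tested, and none of these 4 passed limma's adjusted threshold; 1 had an unadjusted p below 0.05 and voom called 0 higher and 2 lower, BMP1 and PAPLN.

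The 6 libraries held 16038062 to 17607612 reads assigned to genes. Of 8 markers of mesenchymal cells and liposarcoma, 6 were tested, and COL1A2 and THY1 lay below the filter (means of 0.0046 and 0.157 FPKM over the 6 libraries). Of the 6 tested, MDM2 rose and S100A4, COL1A1, CDK4 and PDGFRB fell, beside 16.4% of all tested genes higher and 18.6% lower. VIM, at 751 ± 27.3 FPKM in TP53INP2_OE cells and 731 ± 17.1 FPKM in NC cells (SD, n = 3 each), did not pass. After GC correction only COL1A1 passed, and it was lower. Of the adipocyte markers, ADIPOQ, LEP and FABP4 were at 0 in all libraries, and LPL was at 11.9 ± 0.526 FPKM in TP53INP2_OE cells and 13.1 ± 0.593 FPKM in NC cells (SD, n = 3 each; log2 fold change -0.14, adjusted p = 0.0781, limma; GC-corrected -0.23, adjusted p = 0.0398). PLIN1 had 7, 8 and 4 reads in TP53INP2_OE libraries and 2, 1 and 0 reads in NC libraries. None of 6 leukocyte markers reached the filter, and they summed to 0.416 to 0.599 FPKM in TP53INP2_OE libraries and 0.394 to 0.686 FPKM in NC libraries. All 5 endothelial markers were expressed and summed to 48.2 to 49.9 FPKM in TP53INP2_OE libraries and 48.9 to 53.2 FPKM in NC libraries. Of these 5, 1 rose and 1 fell, and after GC correction 1 was higher and 0 lower. Of 6 epithelial markers only KRT8 and KRT18 were tested. Both fell, beside 18.6% of all tested genes, and neither passed after GC correction. The 6 summed to 63.8 to 75.8 FPKM in TP53INP2_OE libraries and 81.5 to 83.5 FPKM in NC libraries. The part of these cell type markers in the results above was not tested.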

How the data were processed

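RNA from 3 TP53INP2_OE and 3 NC libraries of SW872-S cells was taken up in Trizol and made into libraries with the Illumina TruSeq RNA kit, per the labels' protocols. The authors deposited 1 table of FPKM values with gene name, type, position and length, per the file headers. Per the submitters' processing notes, Bowtie 0.12.2 was among the tools; the notes list GRCh38 and mm8 as builds without a role for either. The sources used here do not say how reads were assigned to genes.

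FPKM times gene length, divided in each library by its smallest value above 0, was whole for 100% of values (tolerance 0.01) and was taken as reads; these served for depth and for voom. Intervals and limits from reads cover counting error only. Genes whose 6 libraries averaged 0.5 FPKM or more were compared on log2(FPKM + 1) with limma 3.58.1 in R 4.3.3 (empirical Bayes with trend, Benjamini-Hochberg adjustment). The procedure was first run on simulated data without a GC trend. It recovered 67 of 100 genes changed by 0.5 on the log2 scale and 93 of 100 changed by 1, with 6 false calls. Smaller changes, and changes in tested genes below 1 FPKM, were not simulated. For the GC correction, a gene's deviation from its mean was modelled within each library by natural splines (each with 5 degrees of freedom) on GC content of the longest GENCODE 29 transcript and on log2 gene length, and the fit was subtracted. All 71 members matched GENCODE 29 by ID, 60 with the same start or end. Positions are those of the table, on GRCh38.

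The members, the lists of genes and the naming rule were chosen with earlier results of these data known. The rule gives library values for TP53INP2, MMP1, MMP2, MMP3, MMP14, TIMP1, TIMP2, TIMP3, ADAM9, ADAM10, ADAM17 and up to 12 other members past the threshold, at least a direction for each tested member, and up to 3 genes past the threshold from each related list. List counts include a gene that is not reported here. The further values of MMP7, TIMP4, MMP9, MMP13, MMP15, MMP19, ADAMTS12, ADAMTS18, ADAMTS7, BMP1, PAPPA, THSD4, PAPLN, IAH1 and AC027307.1, the markers LPL, PLIN1, COL1A2 and THY1, the naming of MMP24, ADAM21 and ADAM28, and the listing of genes at 0, were chosen after their values were seen. A count test was planned only for raw counts, which this table does not hold. Alternatives covered the pseudocount, filter, scaling, voom, GC correction, replicate block and leaving out each library.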

Additional observations from a re-analysis of the deposited data

How the results depend on the processing

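The 5 members higher and 6 lower in TP53INP2_OE came to 3 and 2 with no filter on low values (63 members tested), to 3 and 1 after GC and length correction, to 2 and 0 after that correction with a replicate block (limma; 5 and 2 at an unadjusted p below 0.05, and 7 and 8 by voom without the correction), and to 8 and 2 when the correction was made among protein-coding genes, an alternative chosen after seeing the data. With 1 library left out they ranged from 3 to 5 higher and from 2 to 7 lower, with 3 higher and 2 lower without NC library 1, 4 and 3 without NC library 2, and 3 and 4 without TP53INP2_OE library 2. With a pseudocount of 0.1, a mean of at least 5 FPKM, protein-coding genes only, TPM, quantile normalization or voom there were 5 to 7 higher and 4 to 8 lower. The replicate block gave 4 higher and 5 lower, with MMP1 (adjusted p = 0.0715, limma) and ADAMTS14 (0.0872) no longer past the threshold. Counts over all tested genes moved as well, from 2430 higher and 2753 lower of 14791. They were 1683 and 1965 of 32504 with no filter, and 659 and 855 of 14548 after GC and length correction. That correction with the block gave 267 and 401 of 14548, and among protein-coding genes 1010 and 1164 of 11270. Without NC library 1 there were 1460 and 1816 of 14791, and with the replicate block alone 1980 and 2416. The labels do not say that a number pairs the libraries, and the deviations of same-numbered libraries correlated at only 0.011 to 0.017, so the numbers were not taken as pairs. Signs turned for TIMP3 under quantile normalization (0.14, adjusted p = 0.00628, limma), for ADAM9 after GC correction (-0.0032, with or without the block, and -0.0087 among protein-coding genes), and for MMP9 (0.26, and 0.28 among protein-coding genes). ADAM8 and ADAMTS10, which also turned under the first correction, passed the threshold when it was made among protein-coding genes (0.24 and 0.30). The other members whose sign turned passed neither before nor after it. Calls among protein-coding genes alone (11278 tested) and with no filter (32504 tested) differ in the number of genes adjusted over; the cause of the other changes was not tested. The 42 members below the filter, which is set on mean FPKM and not on reads, had at most 62 reads in a library.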
